A study of Mus musculus with 31 samples.

Results

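Hotspots private to PWD are the places where meiotic DNA double-strand breaks were found in the inbred strain PWD and in none of the other inbred lists or the knockout list of the same study. They were selected on measured positions: a hotspot of the PWD list on the 19 autosomes was kept when its centre lay 400 bp or more from every hotspot centre in the B6, C3H, 13R, CAST, MOL and Prdm9 knockout lists. This left 9904 of 13501 autosomal PWD hotspots, or 73.4% (95% Clopper-Pearson interval 72.6 to 74.1), out of 392225 autosomal hotspots in all 26 lists. "Private" therefore holds for those 6 lists by choice and says nothing about the hybrids.

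Breaks were mapped by DMC1 SSDS, which sequences the single-stranded DNA that the recombinase DMC1 covers at resected break ends, in frozen mouse testis. The crosses with a PWD parent were PWDfXB6m, PWDfXC3Hm, PWDfXMOLm, PWDfXCASTm and PWDfX13Rm, each with a PWD mother, and B6fXPWDm, with a PWD father; f marks the mother's strain and m the father's. The 13 crosses without PWD combined B6, C3H, 13R, CAST and MOL, and the inbred strains were PWD (PWD/PhJ), CAST (CAST/EiJ), MOL (MOLF/EiJ), C3H (C3H/HeJ), B6 (C57Bl/6J) and 13R (B10.F-H2pb1/(13R)J), besides the knockout B6;129P2-Prdm9<tm1Ymat>/J. Each genotype had 1 library and no replicate, neither the ages of the mice nor any pooling of animals is given in the labels, and read depth is unknown. The sample now labelled as inbred CAST is one that the series text gives as removed after a wrong label as a hybrid, with CAST as its mother's and 13R as its father's strain, so its identity is in doubt, and values that rest on the CAST list assume that the present label is right. Its list held 0.599% of the 13850 autosomal 13R hotspots, where the 5 crosses with a 13R parent held 56.7% to 76.6%. The files hold break positions only, so the labelled tissue could not be checked against marker genes.

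In mice most hotspots are placed by PRDM9, a meiotic histone methyltransferase whose zinc fingers bind DNA and differ between strains, so that strains with different alleles break their DNA at different sites. A hybrid carries the alleles of both parents, and each can act on either parental genome. PWD derives from Mus musculus musculus, and males from a PWD mother and a B6 father are a classic model of hybrid sterility in which Prdm9 is one of the genes involved.

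Few members lay at gene starts. In all, 17 members (0.172%) had their centre in one of 32851 windows that run from 250 bases before to 50 bases after a gene start (RefSeq, GRCm38.p6), against 33 of the other PWD hotspots (0.917%). The others include the 238 PWD hotspots at knockout sites, which the choice of members left out, so this gap is not independent of that choice. Of the windows with a member 5, picked after the values were seen, are shown because they place hotspot centres on known sequence at members that recurred in all 6, in some or in few crosses with PWD. The letters are those of the reference strain, not of PWD, and the 31 capitals are centred on the hotspot centre.
C430002N11Rik: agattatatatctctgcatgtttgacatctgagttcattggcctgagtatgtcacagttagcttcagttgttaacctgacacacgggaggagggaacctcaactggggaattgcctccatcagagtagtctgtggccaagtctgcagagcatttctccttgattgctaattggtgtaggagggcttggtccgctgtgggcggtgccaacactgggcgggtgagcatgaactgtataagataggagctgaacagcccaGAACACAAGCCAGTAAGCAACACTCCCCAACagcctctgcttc
Il33: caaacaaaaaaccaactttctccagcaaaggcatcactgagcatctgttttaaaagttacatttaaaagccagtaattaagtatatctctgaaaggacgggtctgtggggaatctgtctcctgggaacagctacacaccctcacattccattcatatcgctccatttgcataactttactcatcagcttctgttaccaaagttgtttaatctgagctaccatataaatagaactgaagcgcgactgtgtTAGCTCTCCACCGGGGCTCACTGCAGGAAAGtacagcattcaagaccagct
Ear10: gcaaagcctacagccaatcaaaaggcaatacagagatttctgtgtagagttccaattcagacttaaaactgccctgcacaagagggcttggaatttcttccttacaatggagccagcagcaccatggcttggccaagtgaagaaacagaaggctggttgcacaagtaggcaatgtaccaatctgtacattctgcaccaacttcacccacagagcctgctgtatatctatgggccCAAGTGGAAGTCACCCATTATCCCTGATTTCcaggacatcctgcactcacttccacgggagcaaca
Padi1: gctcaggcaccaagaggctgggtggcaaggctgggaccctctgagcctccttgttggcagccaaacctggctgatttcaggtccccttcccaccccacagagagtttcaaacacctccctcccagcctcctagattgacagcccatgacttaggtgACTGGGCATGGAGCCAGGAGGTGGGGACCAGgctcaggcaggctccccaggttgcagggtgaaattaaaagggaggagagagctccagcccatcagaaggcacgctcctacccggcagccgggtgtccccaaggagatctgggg
Dnmt3l: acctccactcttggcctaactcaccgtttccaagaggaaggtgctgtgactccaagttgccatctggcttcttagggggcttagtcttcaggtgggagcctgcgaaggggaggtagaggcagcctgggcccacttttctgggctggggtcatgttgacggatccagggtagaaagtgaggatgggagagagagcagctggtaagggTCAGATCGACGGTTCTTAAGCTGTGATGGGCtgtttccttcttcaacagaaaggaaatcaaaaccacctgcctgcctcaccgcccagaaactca
C430002N11Rik, annotated as non-coding (window chr9:96765312-96765611, plus strand), had the strongest of these hotspots, at percentile 96.9 of PWD strength, and lay in all 6 crosses with PWD. Il33, which encodes an alarmin cytokine (chr19:29945540-29945839, plus strand), was at percentile 86.5 in PWD and in 4 of the 6 crosses. Ear10, of the eosinophil-associated ribonuclease family (chr14:43923547-43923846, minus strand), was at 85.4, in all 6 crosses and also in 4 without PWD; the family holds near-identical copies, so its place is uncertain. Padi1, a peptidylarginine deiminase gene (chr4:140845729-140846028, minus strand), was at 78.9 and in all 6 crosses. Dnmt3l, a cofactor of DNA methylation in germ cells (chr10:78042037-78042336, plus strand), was at 73.0 and was found in 2 crosses, PWDfXB6m and PWDfXC3Hm. The GC content of these windows ran from 42.3% at Il33 to 61.3% at Padi1, against a mean of 53.8% over all windows.

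Within PWD the members were on the whole somewhat weaker than the remaining hotspots. Their median strength percentile was 47.1, where 100 is the strongest autosomal hotspot of the list, against 57.8 for the 3597 other PWD hotspots, and their median width was 2018 bp against 2182 bp. They held 69.1% of the summed strength. The others mostly met 1 further list (3287) rather than 2 or more (310). PWD hotspots lay at a MOL hotspot in 13.0% of cases and at a CAST hotspot in 11.9%, against 1.76% at a knockout site, 1.14% at a B6 hotspot, 0.800% at a C3H hotspot and 0.681% at a 13R hotspot. The threshold fell in a thin stretch: 123 members had their nearest other centre at least 400 but under 500 bp away, with a median percentile of 49.6, and 186 PWD hotspots just inside the limit, between 300 and 400 bp, had one of 53.4. For 9285 members it was 1000 bp or more away.

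Members reappeared in every cross with a PWD parent, but to very different degrees. PWDfXB6m had 4058 of them (41.0%, 40.0 to 41.9), against 46.2% of all autosomal PWD hotspots. PWDfXC3Hm had 38.9% (38.0 to 39.9), against 43.8% of all. PWDfXMOLm had 35.5% (34.5 to 36.4), against 44.8% of all. B6fXPWDm had 29.6% (28.7 to 30.5), against 34.4% of all. In PWDfXCASTm the share was 28.3% (27.4 to 29.1), against 37.8% of all. PWDfX13Rm was lowest with 1457 members (14.7%, 14.0 to 15.4), against 18.5% of all. In each of the 6 crosses the members' share thus lay below that of all PWD hotspots, which count the members too. All PWD hotspots also include those at a hotspot of the cross's other parent, so this order is partly built in.

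The 13 crosses without PWD held few members. CASTfXMOLm had 2.72%, against 15.6% of all PWD hotspots. Of the crosses with MOL and no CAST, C3HfXMOLm had 1.93% against 8.76%, MOLfXB6m 1.84% against 8.85%, B6fXMOLm 1.51% against 7.03% and MOLfX13Rm 1.34% against 6.49%. Of those with CAST and no MOL, CASTfXB6m had 1.81% against 10.6%, B6fXCASTm 1.73% against 10.2% and C3HfXCASTm 1.60% against 9.64%. The 5 crosses among B6, C3H and 13R had between 4 and 10 members each. C3HfXB6m had 0.101% against 1.04%, 13RfXB6m 0.0606% against 0.667%, C3HfX13Rm 0.0606% against 0.733%, B6fXC3Hm 0.0505% against 0.667% and B6fX13Rm 0.0404% against 0.533%. The mean share was 31.3% ± 9.56 in crosses with a PWD parent (SD, n = 6) and 1.14% ± 0.939 in those without (SD, n = 13), 30.2 percentage points apart (exact two-sided permutation test, p = 3.69e-05, the smallest that 27132 assignments allow, adjusted p = 0.000184 over 5 tests). The 2 groups did not overlap. This direction is largely fixed by the choice of members, since both parents of every cross without PWD were among the lists used to exclude. The difference was 16.2 points when only the 9500 strongest hotspots of each F1 list were read and 50.0 points for members above the median of PWD strength.

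**Figure D1:**
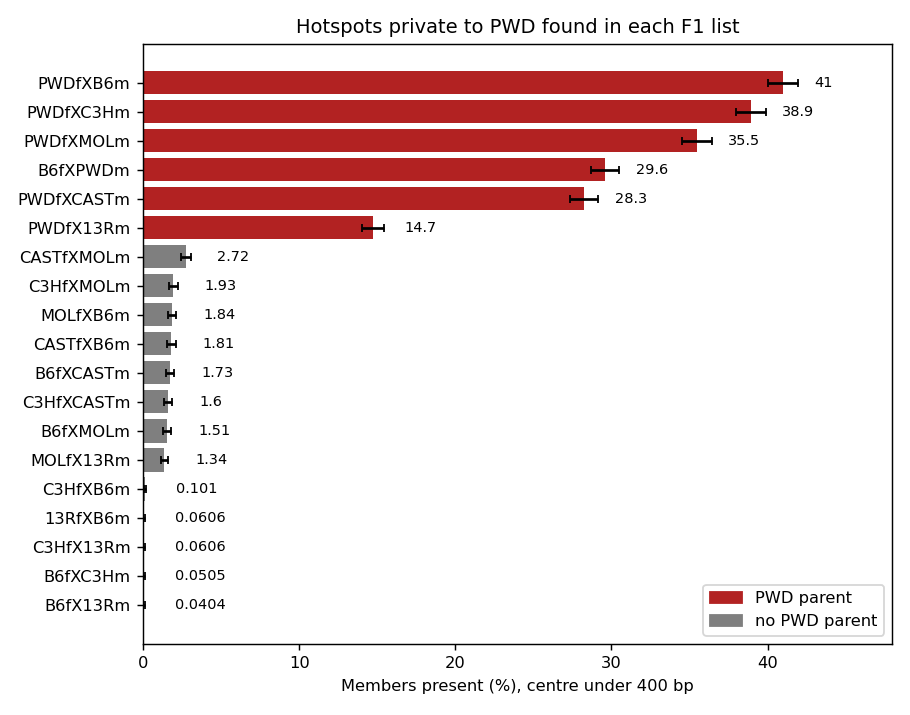
Share of the 9904 hotspots private to PWD that had a hotspot centre under 400 bp away in each of the 19 F1 lists, with exact 95% Clopper-Pearson intervals for counting error. The 6 crosses with a PWD parent ran from 14.7% to 41.0% and the 13 without from 0.0404% to 2.72%.

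The F1 lists differed in length, and the shares did not follow length throughout. The lists of PWDfXCASTm, PWDfXB6m, PWDfXC3Hm and PWDfXMOLm held 18270, 16759, 15665 and 14912 autosomal hotspots, and the longest of these had the lowest share of the 4. The lists of PWDfX13Rm (12945) and B6fXPWDm (12918) were of near equal length, with shares of 14.7% and 29.6%. With the 9500 strongest hotspots of each list the members' share was 21.4% in PWDfXB6m, 20.6% in B6fXPWDm, 20.5% in PWDfXC3Hm and 19.4% in PWDfXMOLm. It was 10.9% in PWDfXCASTm and 9.15% in PWDfX13Rm. At equal length the 2 directions of the B6 cross therefore had overlapping intervals (20.6 to 22.3 in PWDfXB6m, 19.8 to 21.4 in B6fXPWDm), and the crosses with CAST and 13R stayed the lowest. In the whole lists 2880 members were in both directions, 1178 in PWDfXB6m alone and 49 in B6fXPWDm alone. The members found in PWDfXB6m alone were weak there, with a median percentile of 18.2. Read depth is unknown, so any part that it plays was not tested.

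Across the 6 crosses recurrence ran from members seen in none to members seen in all. In none of the 6 crosses with PWD were 4367 members (44.1%, 43.1 to 45.1), whose median PWD percentile was 26.9. Present in all 6 were 1087 members (11.0%, 10.4 to 11.6), whose median PWD percentile was 87.6. Between these were 4450 members (44.9%), of which 1433 were in 1 cross and 734 to 797 in each number from 2 to 5. Including the crosses without PWD, 4328 members (43.7%) were in none of the 19 F1 lists. The same counts over all PWD hotspots are not given here, so this recurrence cannot be called particular to members. The members of the poorest cross were nearly all found in richer ones: of those in PWDfX13Rm, 97.9% were also in PWDfXB6m and 96.1% in B6fXPWDm, but 83.9% in PWDfXCASTm and 88.0% in PWDfXMOLm. These make up 35.1%, 47.8%, 43.7% and 36.5% of the members in those other crosses, in the same order.

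Presence was higher the stronger a member was in PWD. The members were divided into 10 deciles by PWD strength, of 990 or 991 each, with decile 10 the strongest. In PWDfXB6m 95.1% of the strongest decile was present, against 5.86% of the weakest. B6fXPWDm had 86.5% against 3.43%, PWDfXC3Hm 93.0% against 4.85%, PWDfXMOLm 89.8% against 7.37% and PWDfXCASTm 79.3% against 7.58%. PWDfX13Rm had 60.0% against 1.82%, and in decile 9 it had 28.8%, where PWDfXB6m had 83.7%. The strongest decile exceeded the weakest by 78.8 ± 11.8 points (SD, n = 6 crosses), from 58.2 in PWDfX13Rm to 89.2 in PWDfXB6m and in all 6 crosses (two-sided exact sign-flip permutation test, p = 0.03125, the smallest that 6 crosses allow, adjusted p = 0.0391). When the CAST list was not used to exclude, the difference was 79.9 points and p by the same exact test was still 0.03125, but its adjusted p was 0.0781, since the p of other tests in the family had gone up. In the 13 crosses without PWD the mean share was 1.45% ± 1.19 in the strongest decile and 0.559% ± 0.614 in the weakest, and between 1.02% and 1.38% in the deciles between. Hotspots private to the other parent were likewise present more often in the strongest decile of their own list. The rise is thus not particular to members. From weakest to strongest decile they went from 5.79% to 93.4% in PWDfXB6m and from 4.94% to 86.0% in B6fXPWDm. They went from 3.29% to 97.3% in PWDfXC3Hm and from 10.4% to 98.9% in PWDfXMOLm. In PWDfXCASTm they went from 20.7% to 97.9%, and in PWDfX13Rm from 6.10% to 99.7%.

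**Figure D2:**
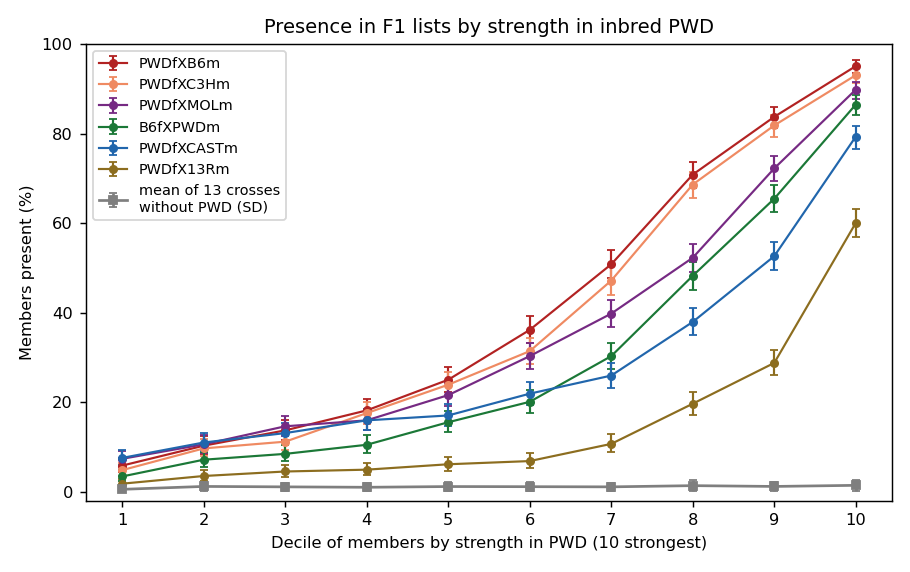
Share of members present in each cross with a PWD parent by decile of PWD strength, with exact 95% intervals, and the mean of the 13 other crosses with its SD. PWDfXB6m went up to 95.1% in the strongest decile and PWDfX13Rm to 60.0%, while the mean of the other crosses stayed at or under 1.45%.

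The strongest members show what the summary stands for; a gene is named here as an address, the gene whose span holds the centre or else the nearest protein-coding gene. The strongest of all lay inside Klf5, a zinc-finger transcription factor gene, on chromosome 14 (mm10, 99306091 to 99310216), with a strength score of 238 in PWD. It was in all 6 crosses with PWD and in none of the 13 without. Its percentile was 99.9 in PWDfXC3Hm, 99.6 in PWDfXMOLm, 99.5 in PWDfXB6m, 99.0 in B6fXPWDm, 98.8 in PWDfXCASTm and 89.6 in PWDfX13Rm. The cross with 13R was thus the low one, and it was again at Atp6v1e2, a proton pump subunit gene of testis on chromosome 17 (86945316 to 86950107), with 67.3 against 94.2 to 99.1 in the other 5.

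The next were 2317 bp from Thoc5, of the THO complex in mRNA export, on chromosome 11 (4929264 to 4933103), and inside Smap1, an Arf GTPase-activating protein gene, on chromosome 1 (23845855 to 23850964). Both were in all 6 crosses, at percentiles of 96.1 to 99.3 for Thoc5 and 96.9 to 98.8 for Smap1; the one in Smap1 was also in 3 crosses without PWD, all with a CAST parent. Inside Atl3, whose product shapes the endoplasmic reticulum, on chromosome 19 (7511379 to 7517030), and inside Dennd6a, a Rab exchange factor gene, on chromosome 14 (26624664 to 26629409), the ranges were 94.3 to 99.8 and 92.4 to 98.4. Those inside 9930021J03Rik on chromosome 19 and nearest to the kidney progenitor gene Six2 on chromosome 17 averaged 91.0 and 93.8 over the 6 crosses. The member in Riok3, an atypical kinase gene on chromosome 18, averaged 92.9. Of the 10 strongest members 1 was missing from a cross: the one inside Prickle1, a planar cell polarity gene on chromosome 15 (93572310 to 93576517), was not in PWDfX13Rm and was at percentile 32.6 in PWDfXCASTm, against 72.3 to 90.7 in the other 4.

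The strongest member of each autosome was in all 6 crosses on 15 of the 19. Besides Prickle1, Smim13 on chromosome 13 was missing from PWDfXCASTm and Mfsd14a on chromosome 3 from PWDfX13Rm. Sec31a, a coat protein gene of vesicles leaving the endoplasmic reticulum, on chromosome 5, was missing from both crosses between PWD and B6. Where present in all 6, the mean percentile was 95.4 near Akr1b3 (aldose reductase, chromosome 6), 93.7 in Atp2c1 (a Golgi calcium pump, chromosome 9), 92.2 near Arl4a (chromosome 12) and 89.7 in Mmaa (vitamin B12 metabolism, chromosome 8). It was 82.7 in Ttc21b (intraflagellar transport, chromosome 2), 80.9 in Abcc1 (an export transporter, chromosome 16), 79.6 in Appl2 (an endosomal adaptor, chromosome 10), 70.5 near Vstm2b (chromosome 7) and 48.5 in Cibar1 (a ciliary protein, chromosome 4). The members at the top of the PWD list were therefore far apart in the hybrids.

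Some strong members were in no hybrid. Of the 991 members of the strongest decile, 16 were in none of the 6 crosses, and the intervals of 7 of these did overlap an interval in 1 or more of them. The strongest lay inside Mlh3, a MutL homologue that resolves crossovers in meiosis, on chromosome 12 (85264911 to 85270380), and ranked 44 among the members. It had a match in 1 F1 list, 13RfXB6m, a cross without PWD, at percentile 79.3. Members matched in that cross had centres a median of 318 bp away, near the 400 bp limit. The others named were near the adrenergic receptor gene Adra2a (chromosome 19, 54221705 to 54224064) and inside Nudt5 (a nucleotide hydrolase, chromosome 2), Cc2d2a (a ciliary transition zone protein, chromosome 5) and Gipc2 (chromosome 3), at PWD percentiles from 97.9 to 94.3. None of these 4 was in any F1 list.

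Where a member was present, its rank in the hybrid followed its PWD rank only loosely. Spearman's rho between both percentiles was 0.377 in PWDfXB6m and in PWDfXC3Hm, 0.318 in PWDfXMOLm, 0.245 in B6fXPWDm, 0.134 in PWDfXCASTm and 0.0661 in PWDfX13Rm, over 1457 to 4058 members per cross; these are descriptions across hotspots, which are not replicates and share the PWD library. The median percentile of those present was between 35.3 in PWDfX13Rm and 45.0 in PWDfXB6m. Averaged over the 6 crosses, it was 56.2 ± 10.8 in the strongest decile and lay between 31.6 and 38.8 in the other 9 deciles (SD, n = 6). Weak members that reappeared thus ranked about as high as members from the middle of the PWD list. Percentiles of lists of different length, with another parent's hotspots among them, do not measure a change in breaks at a site.

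**Figure D3:**
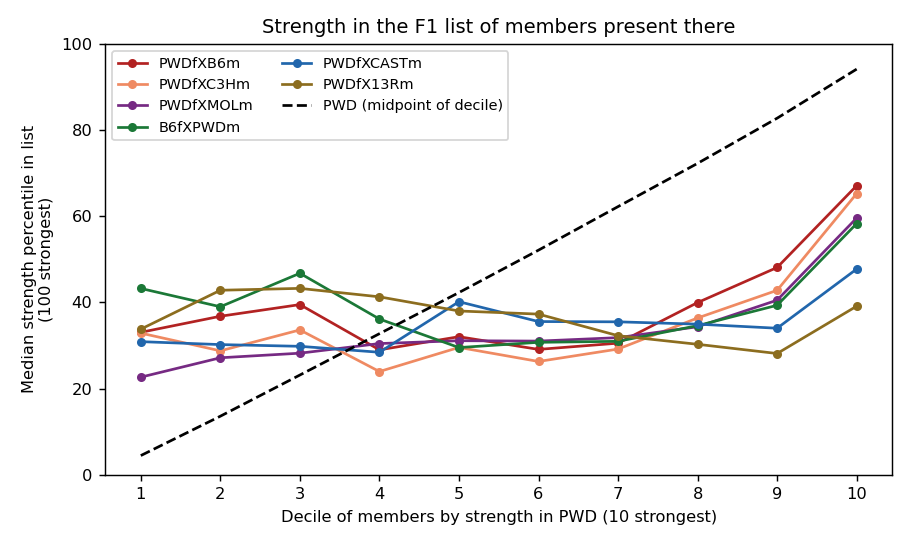
Median strength percentile within each F1 list of the members present there, by decile of PWD strength; the dashed line gives the middle of each decile in the PWD list itself. The 6 lines lay between 22.7 and 48.1 in the weakest 9 deciles and between 39.1 and 67.1 in the strongest.

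Ranks were more alike between hybrids than between a hybrid and PWD. Over the 1087 members present in all 6 crosses, rho with PWD was between 0.101 and 0.233. Between 2 crosses whose other parents were B6, C3H or 13R it was between 0.688 and 0.938 (6 pairs, highest for both directions of the B6 cross), and in the 9 pairs with a CAST or MOL cross between 0.583 and 0.641. All of these pairs share the PWD parent, and the first set includes crosses that share B6. Choice by presence in all 6 crosses also narrowed the range of PWD ranks, as 521 of the 1087 were of the strongest PWD decile. This can lower rho with PWD more than rho between crosses, and its size was not tested. The mean percentile over the 6 crosses exceeded the PWD percentile for 175 of the 1087 members (16.1%). The same share over other PWD hotspots is not given here. The 3 largest rises of this kind were at members of the weakest 2 deciles. Percentiles have an upper limit, so rises of this size need a low PWD percentile, and this place is built in. The one 4145 bp from Bok, a BCL-2 family gene, on chromosome 1 (93699302 to 93700527) was at percentiles of 82.6 to 92.0 in the crosses, against 5.40 in PWD. Inside Hs2st1, a heparan sulfate sulfotransferase gene on chromosome 3, the values were 71.0 to 94.5 in the crosses, against 4.11 in PWD. Nearest to Mphosph6, an RNA exosome factor gene on chromosome 8, they were 81.2 to 95.5 in the crosses, against 10.3 in PWD.

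At the other extreme the member inside Hadha, a mitochondrial fatty acid oxidation gene on chromosome 5 (30137920 to 30141263), averaged 27.6 in the crosses, against 97.8 in PWD. Ncoa2, a nuclear receptor coactivator gene on chromosome 1, averaged 23.9 against 94.0, and the member near the kinase gene Map3k7 on chromosome 4 averaged 25.7 against 95.5. All 3 were present in all 6 crosses. Falls of this size need a high PWD percentile, so the place of these 3 high in the PWD list is built in. At Hadha the highest value was 58.3 in PWDfXB6m and the lowest 13.4 in PWDfXCASTm.

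Members were also set against the PWD hotspots that lie at a hotspot of another strain, leaving out those of the cross's other parent and of the knockout. Within deciles of PWD strength, members were present less often in all 6 crosses. The difference, members minus those hotspots, was -8.91 points in B6fXPWDm, -8.81 in PWDfXC3Hm, -8.80 in PWDfXB6m, -8.68 in PWDfX13Rm, -5.59 in PWDfXCASTm and -2.45 in PWDfXMOLm. The mean difference was -7.21 ± 2.66 points (SD, n = 6; two-sided exact sign-flip permutation test, p = 0.03125, adjusted p = 0.0391). It was -15.2 points without regard to deciles. With the CAST list not used to exclude it was -5.09 points and did not pass (exact permutation test, adjusted p = 0.117). Members then include PWD hotspots that lie at CAST hotspots. In crosses without a CAST parent many of these also stand in the comparison set. The smaller difference is thus partly built in and cannot show how far the call rests on the CAST list.

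Members were then set against hotspots private by the same rule to the other parent of each cross. In PWDfXB6m 41.0% of members was present, against 25.7% of 12965 hotspots private to B6. In B6fXPWDm the shares were 29.6% against 21.7%, and in PWDfXC3Hm 38.9% against 36.3% of 8827 private to C3H. The order was the other way round in the remaining 3: PWDfXMOLm had 35.5% of members against 47.9% of 12220 private to MOL, PWDfXCASTm 28.3% against 70.1% of 12122 private to CAST, and PWDfX13Rm 14.7% against 56.4% of 13283 private to 13R. Within deciles of strength in the own parental list the mean difference was -11.7 ± 25.0 points, with members higher in 3 of 6 crosses, and did not pass (two-sided exact sign-flip permutation test, p = 0.375, which is also its adjusted p). Single crosses moved this mean by more than 1.5 times: it was -5.68 points without PWDfXCASTm and -5.71 points without PWDfX13Rm. By strength the order was the same in all 6: the median percentile of the members present was lower than that of the other parent's private hotspots. The difference was -6.67 in PWDfXB6m, -8.39 in B6fXPWDm, -9.08 in PWDfXC3Hm, -12.1 in PWDfXMOLm, -12.3 in PWDfXCASTm and -18.1 in PWDfX13Rm. This mean difference was -11.1 ± 4.05 (SD, n = 6; two-sided exact sign-flip permutation test, p = 0.03125, adjusted p = 0.0391). It was -7.19 with the CAST list not used to exclude (exact permutation test, adjusted p = 0.104).

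**Figure D4:**
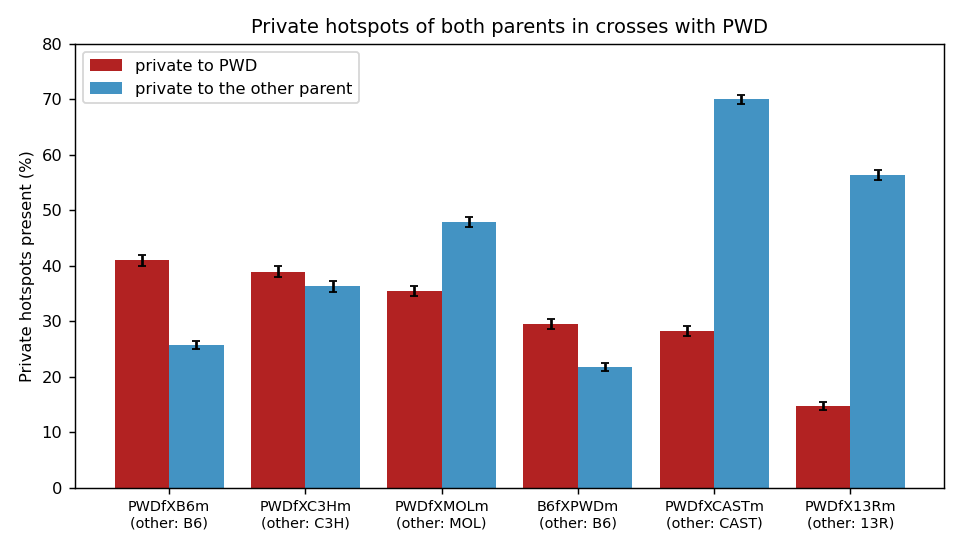
Share of hotspots private to PWD and of hotspots private to the other parent that were present in each cross with PWD, with exact 95% intervals. PWD was ahead in both B6 crosses and the C3H cross and behind with MOL, CAST and 13R, where 14.7% of members stood against 56.4% of 13R hotspots.

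Few members met crosses without PWD, and nearly all that did met crosses with CAST or MOL. In all, 543 members (5.48%, 5.04 to 5.95) were in 1 or more of the 13, of which 22 were in a cross among B6, C3H and 13R. Matched centres in crosses among these 3 strains lay a median of 308 to 342.5 bp apart, near the 400 bp limit. In the crosses with CAST or MOL and no PWD the medians were 58 to 101 bp. The grouping of the 13 crosses by CAST and MOL was made after the values were seen and was not tested. In the 3 CAST crosses without MOL the mean share was 1.71% ± 0.107, with 206 members in any and 132 in all 3. In the 4 MOL crosses without CAST it was 1.66% ± 0.274, with 249 in any and 101 in all 4. Both a CAST and a MOL cross of these 7 held 18 members, which is 8.74% of the 206 and 7.23% of the 249, where all members were in a CAST cross at 2.08% and in a MOL cross at 2.51%. Although their centres were 400 bp or more from any CAST or MOL hotspot by choice, 7 of the 132 intervals (5.30%) overlapped one of the CAST list, against 2.67% of all members. Of the 101, 16 intervals (15.8%) overlapped one of the MOL list, against 3.09% of all members.

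The 132 and the 101 were picked by presence in every CAST or every MOL cross. A high share in the PWD cross with that parent is therefore partly built in. Of the 132, 91.7% were in PWDfXCASTm with a median percentile of 84.8. In the other 5 PWD crosses 31.1% to 56.8% were present, with medians of 40.9 to 61.5. Of the 101, 83.2% were in PWDfXMOLm with a median percentile of 82.5. In the other 5 PWD crosses 46.5% to 71.3% were present, with medians of 61.5 to 76.1. Members in none of the 13 crosses were present at 13.8% to 40.0%. In PWD itself the sets had median percentiles of 52.3 (CAST) and 53.4 (MOL), against 46.9 for the 9361 in none of the 13.

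**Figure D5:**
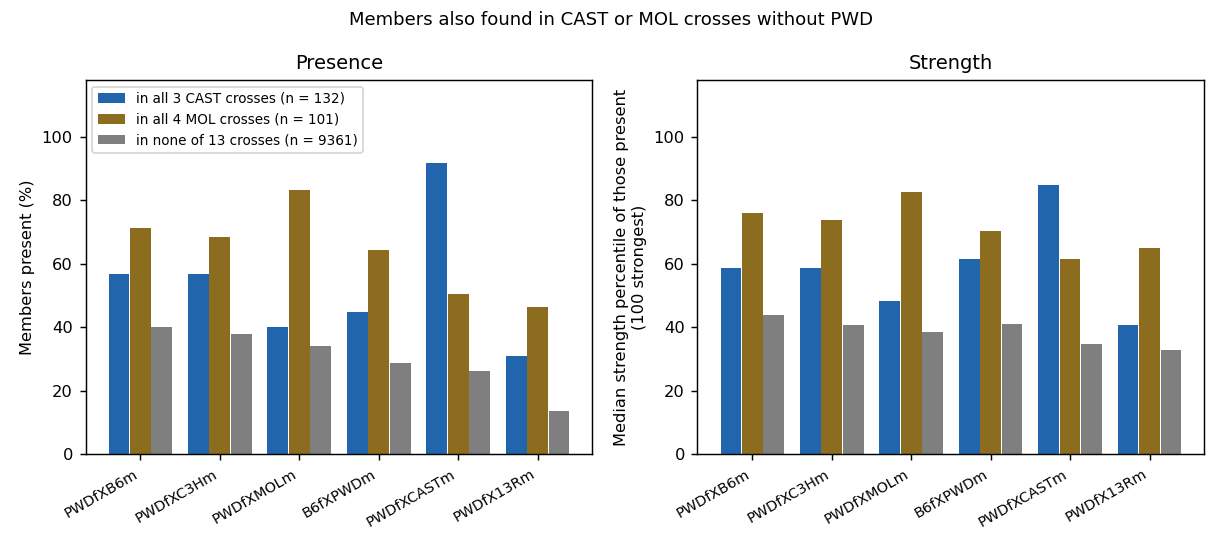
Presence and median strength percentile, in the 6 crosses with PWD, of members found in all 3 CAST crosses, in all 4 MOL crosses or in none of the 13 crosses without PWD. The CAST set reached 91.7% in PWDfXCASTm and the MOL set 83.2% in PWDfXMOLm.

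The 3 strongest members of each set were named after their values were seen. In the splicing factor gene Sf1 on chromosome 19 (6375232 to 6378529) the percentile was 99.2 in PWDfXCASTm and between 40.9 and 82.3 in the other 5 PWD crosses, and between 92.7 and 97.6 in the 3 CAST crosses. The member nearest to the cadherin gene Cdh9 on chromosome 15 was at 98.7 in PWDfXCASTm and at 90.9 to 99.3 in the CAST crosses, and the one inside Nav3 on chromosome 10 at 97.6 and at 83.3 to 85.9. In the MOL set the strongest, inside Ttc21b on chromosome 2, was at 96.0 in PWDfXMOLm and at 61.1 to 93.2 in the other 5 PWD crosses, but at 2.69 to 54.2 in the 4 MOL crosses. The member in Ppp1r8, a phosphatase regulator gene on chromosome 4 (132826851 to 132831938), was at 96.6 to 98.9 in all 6 PWD crosses and at 92.3 to 97.1 in the 4 MOL crosses. Near Lmo3 on chromosome 6 the value was 99.7 in PWDfXMOLm, against 16.4 to 39.4 in the 4 other PWD crosses where it was present, and between 20.1 and 61.4 in the 4 MOL crosses. The 2 sets were thus unlike at their top: the 3 of the CAST set were at 83.3 or more in all 3 CAST crosses, and of the 3 of the MOL set only Ppp1r8 was as high in all 4 MOL crosses. The member found in the largest number of crosses without PWD, 7, lay inside Dapp1, an adaptor gene of B cell signalling, on chromosome 3 (137972699 to 137975480). It was in 2 of the PWD crosses, at percentile 99.7 in PWDfXCASTm and 99.5 in PWDfXMOLm, and at 94.2 to 99.3 in the 7, against 48.3 in PWD.

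By place in the genome, members had a lower share in and at genes than the other PWD hotspots, which was not tested. Their centre was inside a protein-coding gene in 50.5% (49.6 to 51.5), against 55.2% (53.5 to 56.8) of the others, and within 1000 bp of a gene end in 3.04% (2.71 to 3.40), against 5.92% (5.17 to 6.74). Within 500 bp the shares were 1.42% against 3.36%, and within 2500 bp 7.47% against 10.7%. The others include PWD hotspots at knockout sites, which the choice of members left out. Members in all 6 crosses with PWD were inside a gene in 56.3% (53.3 to 59.3), and members in none of the 6 in 47.7% (46.3 to 49.2). Of 20665 protein-coding genes on autosomes, 311 (1.50%) had a member at an end and 3469 (16.8%) one inside.

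Of 50 meiotic prophase genes, none had a member at an end and 11 had one inside (22.0%, 11.5 to 36.0), an interval that holds the 16.8% of all genes. Besides Mlh3 these were Dmc1 itself, the break-forming genes Mei4, Rec114 and Ankrd31, the crossover genes Hfm1 and Msh4, the telomere attachment gene Majin and the synaptonemal complex genes Sycp1, Syce2 and Syce3. None of 95 ribosomal protein genes had a member at an end (0 to 3.81), and 5.26% had one inside. Of 1104 olfactory receptor genes 8 had one at an end (0.725%, 0.313 to 1.42) and 0.815% one inside. Of 354 vomeronasal receptor genes 2 had one at an end (0.565%, 0.0685 to 2.03) and 1.41% one inside. The ribosomal and vomeronasal intervals at ends hold the 1.50% of all genes, and the olfactory one lies below it. Shares inside depend on gene length, which was not taken into account, so they cannot show that members avoid these families. The strongest at the end of a receptor gene lay 459 bp from Olfr194 on chromosome 16, in all 6 crosses at percentiles of 20.2 to 76.9, against 90.3 in PWD. Those at Olfr1396, Olfr97, Olfr1157, Vmn1r218 and Vmn1r82, at PWD percentiles of 60.2 to 5.47, were in no F1 list. Receptor genes of these families have near-identical copies, so places in them are uncertain.

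By chromosome, the members' share of PWD hotspots ran from 68.6% on chromosome 18 to 76.2% on chromosome 17. Presence differed more. Chromosome 18 had 57.6% of its members in PWDfXB6m, against at most 48.3% on any other autosome, 45.8% in B6fXPWDm, against at most 35.2%, and 58.6% in PWDfXC3Hm, against at most 47.0%. With deciles of PWD strength weighted equally it was still highest in these 3 crosses, at 52.9%, 41.9% and 54.6%, while its rank was 3 in PWDfXCASTm and PWDfXMOLm and 7 in PWDfX13Rm. Chromosome 9 was highest in PWDfX13Rm, at 25.3% against a median of 14.2% over autosomes, and in PWDfXMOLm, at 48.6% against a median of 36.7%. Chromosome 5 was lowest on average over the 6 crosses, at 24.6%, and its members were also the weakest in PWD, with a median percentile of 33.7. With deciles weighted equally its mean was 29.4%, no longer the lowest, and chromosome 19 was lowest at 24.9%. These orders were found by looking over all autosomes and were not tested.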

How the data were processed

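DMC1 SSDS was run on testis of 26 mouse genotypes with 1 library each, and 5 input samples without a hotspot list were not used. The authors deposited, per library, a list of hotspots with chromosome, start, end and a strength score. MACS2 2.0.10, CASAVA 1.8 and build mm10 are listed, with no role or order, in the processing notes of the submitters. How hotspots were filtered and the score scaled is not given in the sources used here, and depth is unknown, so the score was used only within a list, as a percentile over autosomal hotspots.

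Starts were read as 0-based and are printed 1-based. Hotspots with centres under 400 bp apart were counted as present. Exact Clopper-Pearson intervals (95%) cover counting error only. Sets of crosses were compared by an exact permutation test (6 of 19 crosses) and paired differences by exact sign-flip permutation tests over 6 crosses, all two-sided, with Benjamini-Hochberg adjustment over 5 tests and a threshold of 0.05. Crosses share parents and are not independent, which these tests ignore. Differences within deciles are means over deciles with at least 10 hotspots of both kinds.

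Genes and gene-start sequences came from RefSeq tables of GRCm38.p6, the primary assembly of mm10; a genome sequence was not used. Named were the strongest member of each autosome, the 10 strongest, up to 5 strongest in none of the 6 crosses with PWD, up to 5 strongest in 10 or more of the 13 other crosses (there were none), the 3 largest differences in percentile in each direction, and up to 4 at the ends of genes of each list. The members, tests and gene lists were chosen with earlier results of these data known. Alternatives covered the matching distance, interval overlap, the lists used to exclude, equal list length, members above the median strength, no deciles, mean percentiles, the gene-end window and leaving out each cross. The matching and tests were checked on made lists with known answers. Python 3.11.15, NumPy 2.4.6, SciPy 1.17.1, pandas 2.3.3 and Matplotlib 3.10.9 were used.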

Additional observations from a re-analysis of the deposited data

Results flagged for a closer look

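Among the crosses with a PWD parent, PWDfX13Rm lay far from the other 5 in the median difference between a member's percentile in the cross and in PWD, at -42.3, where the others lay between -31.5 and -25.5. Where both parents were B6, C3H or 13R (5 crosses), single crosses stood apart in the share of members present within a decile of PWD strength: B6fXC3Hm in decile 4, at 0%, C3HfX13Rm in decile 6, at 0.101%, and 13RfXB6m in the strongest decile, at 0.202%. Each of these 3 shares rests on at most 2 members. In all 49 groups of values were looked at, and chance alone flags about 5% of such groups.

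The difference in presence between members and hotspots private to the other parent went one way in every cross with B6 or C3H (mean 8.56 points, 3 crosses) and the opposite way in every cross with 13R, CAST or MOL (mean -32.0 points, 3 crosses). The gap between these means was 40.5 points. The 2 sets of crosses were formed after the values were seen, and the difference between them was not tested.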

How the results depend on the processing

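The 5 tests were recomputed under 72 alternatives; none turned a direction, 51 kept their side of the threshold and 21 did not. Of these 21, 18 left out 1 cross, where 5 crosses cannot give a p under 0.0625 in the exact permutation test, so they say nothing about stability; the values then ran from -8.16 to -6.87 points for members against PWD hotspots of other strains, from -12.0 to -9.71 for the median percentile against the other parent's private hotspots, and from 76.7 to 82.9 points for the strongest against the weakest decile. Presence against the other parent's private hotspots, which did not pass in any case, ran from -17.1 to -5.68 points when 1 cross was left out. With members above the median strength it was -17.4 points. The other 3 came from not using the CAST list to exclude, with -5.09 points, -7.19 and 79.9 points for the same comparisons (adjusted p of 0.117, 0.104 and 0.0781 by exact permutation; in the last the unadjusted p stayed at 0.03125); members then include CAST hotspots by construction. The share of members at gene ends was 1.42% within 500 bp and 7.47% within 2500 bp, against 3.04% within 1000 bp, where other PWD hotspots had 3.36%, 10.7% and 5.92%. Presence in the CAST crosses without PWD was 1.47% with centres under 200 bp and in the MOL crosses 1.34%. Replicate blocks could not be used because each genotype had 1 library. With no replicates and unknown depth, absence from a list means that no hotspot was called there, not that no breaks formed.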
